A study of Mus musculus with 3 samples.

Results

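The genes described here code for the endothelin system (the peptide Edn1, its receptors Ednra and Ednrb and the processing enzyme Ece1) and for the receptors of interleukin-4 and interleukin-13 with their signalling chain (Il4ra, Il13ra1, Il13ra2, Jak1, Stat6 and Socs3). They were taken by symbol, using every probe set of the array that was annotated to exactly 1 symbol. Of the 10 genes listed, 9 had such a probe set, among 7842 genes in all. Edn1 had 2 probe sets, so that 10 probe sets of 9889 were examined. Ednra was not analysed here, because no probe set was annotated to that symbol alone.

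The cells were dermal fibroblasts of the mouse, grown in culture and profiled on Affymetrix arrays, with 1 array column for each of 3 genotypes. FGFR3Act cells were taken from Fgfr3G374Rneo- mice, whose receptor tyrosine kinase Fgfr3 is active without ligand through the G374R change. FGFR3KO cells were taken from FGFR3G374Rneo+ mice, which have the same change but keep the neo cassette and lack a functional receptor according to the labels. FGFR3WT cells were from Bl6 mice of wild type. The labels give neither the strain background of the mutants nor the age or sex of the animals, and the labels record no treatment. The series states n = 3 for every group, and the labels do not say if a column stands for a single culture, pooled cultures or an average. The differences below are therefore between single array columns, without a standard error or a test, and the number of arrays limits their precision.

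Endothelin 1 is a small peptide that is cut from a precursor by endothelin converting enzyme. It contracts vascular smooth muscle and stimulates fibroblasts through G-protein-coupled receptors, and it is studied as a profibrotic mediator in skin. Interleukin-4 and interleukin-13 bind receptors that share the Il4ra chain. These receptors signal through Janus kinases to Stat6, a transcription factor that is phosphorylated at the receptor and moves to the nucleus. The series concerns profibrotic regulation through Fgfr3, and both pathways are known for profibrotic effects on skin fibroblasts.

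The sequences just upstream of the transcription start are shown for 4 genes. Edn1 was higher on FGFR3Act and lower on FGFR3KO than on FGFR3WT, and Il4ra, Il13ra1 and Jak1 were highest on FGFR3WT. Stat6 was also highest on FGFR3WT, and its window was searched but is not shown. Each sequence is the 250 bases before the RefSeq start in mouse build GRCm38.p6, written 5′ to 3′ on the strand of the gene. Capitals mark letters that match a searched motif, and the base just before the start is counted as -1.
Edn1 (chr13:42301226-42301475, plus strand): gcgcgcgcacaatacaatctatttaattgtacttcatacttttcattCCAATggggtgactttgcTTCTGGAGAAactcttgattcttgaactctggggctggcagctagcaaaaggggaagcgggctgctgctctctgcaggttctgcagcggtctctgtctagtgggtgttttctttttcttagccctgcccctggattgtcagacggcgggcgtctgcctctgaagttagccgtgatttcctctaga
Il4ra (chr7:125552021-125552270, plus strand): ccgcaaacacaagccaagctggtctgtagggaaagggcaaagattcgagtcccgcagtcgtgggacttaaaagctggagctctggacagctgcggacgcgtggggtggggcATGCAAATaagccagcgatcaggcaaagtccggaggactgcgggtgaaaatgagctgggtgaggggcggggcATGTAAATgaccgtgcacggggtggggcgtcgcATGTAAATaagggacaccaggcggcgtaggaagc
Il13ra1 (chrX:36111858-36112107, plus strand): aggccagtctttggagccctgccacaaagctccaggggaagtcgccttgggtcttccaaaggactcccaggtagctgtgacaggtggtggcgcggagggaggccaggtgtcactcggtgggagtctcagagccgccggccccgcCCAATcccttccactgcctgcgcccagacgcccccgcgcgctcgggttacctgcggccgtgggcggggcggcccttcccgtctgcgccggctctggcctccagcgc
Jak1 (chr4:101265224-101265473, minus strand): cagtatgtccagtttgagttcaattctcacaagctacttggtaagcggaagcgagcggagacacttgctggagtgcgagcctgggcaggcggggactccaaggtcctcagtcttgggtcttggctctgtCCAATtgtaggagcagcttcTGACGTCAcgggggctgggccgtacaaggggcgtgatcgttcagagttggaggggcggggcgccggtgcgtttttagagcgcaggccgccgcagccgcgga

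The motifs searched on both strands were the cAMP response element TGACGTCA and its core TGACG, which it contains, the AP-1 site TGANTCA, the STAT palindromes TTCNNNGAA and TTCNNNNGAA, and the CCAAT box. The Edn1 window held TTCTGGAGAA, a match to the wider STAT palindrome, at -185 to -176, and a CCAAT box at -203 to -199. Of 32851 RefSeq windows of the same length, 5.85% held the wider palindrome and 33.8% a CCAAT box. The Jak1 window held the full TGACGTCA at -101 to -94, as did 1.55% of all windows. It also held a CCAAT box at -121 to -117. Among the windows of the other members, Ednra held the wider STAT palindrome (TTCTCAGGAA at -120 to -111). Socs3, whose product inhibits cytokine receptor signalling, held the narrower one (TTCTTAGAA at -154 to -146), as did 7.02% of all windows. Il13ra2 held an AP-1 site (6.75% of all windows), Ednrb and Stat6 each held the core TGACG (17.8% of all windows), and Ednrb, Il13ra2 and 2 of 4 Ece1 windows held CCAAT boxes. These 2 Ece1 windows overlap and hold the same boxes. The Il4ra window held none of these 6 motifs. It held 3 copies of an octamer-like element, ATGCAAAT at -139 to -132 and ATGTAAAT at -67 to -60 and at -34 to -27. The element ATGNAAAT was added after the sequence was seen. At least 1 copy was present in 5.03% of all windows and at least 3 copies in 12 of them (0.0365%). The Il13ra1 window held only a CCAAT box, at -106 to -102, and was rich in C and G (70.8%, against a median of 52.4% over all windows). A match of letters is a description of the sequence and not evidence that a factor binds there.

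The arrays were of fibroblasts, and 1 of them also held transcripts of another cell type. All 12 fibroblast markers on the array, such as Col1a1 and Pdgfra, had signals above the floor on every array, and they summed to 53502 on FGFR3Act and 77621 on FGFR3KO, against 58444 on FGFR3WT. The floor is an array's 40th percentile of signal over all but the control probe sets. It stood at 123 on FGFR3Act, 122 on FGFR3KO and 121 on FGFR3WT. Signals under it were raised to it before any difference was taken. Of 17 markers of macrophages and leukocytes, 15 were above the floor on FGFR3Act, against 1 on FGFR3KO and 1 on FGFR3WT. Their summed signal was 42581 on FGFR3Act and 1443 on FGFR3KO, against 1270 on FGFR3WT, and the 1 marker above the floor on all 3 arrays was Cd14. Ptprc and Itgam were below the floor also on FGFR3Act. Fgfr3 itself gave 2.42 on FGFR3Act, 3.76 on FGFR3KO and 1.06 on FGFR3WT. These signals lie well under the floor and cannot serve as a check of the genotypes. The 3 probe sets for beta-actin, placed along the transcript, stood 1.36 to 1.55 times as high on FGFR3Act and 1.48 to 1.65 times as high on FGFR3KO as on FGFR3WT. The Gapdh 5′ control stood 0.552 times as high on FGFR3Act and 0.910 times as high on FGFR3KO as on FGFR3WT. The 3′ to 5′ ratio of beta-actin, a measure of RNA integrity, was 1.44 on FGFR3Act, 1.82 on FGFR3KO and 1.64 on FGFR3WT. The same ratio for 18S RNA was 4.78 on FGFR3Act, against 2.13 on FGFR3KO and 2.13 on FGFR3WT. For pyruvate carboxylase it was 1.75 on FGFR3Act and 3.73 on FGFR3KO, against 2.35 on FGFR3WT, with the 5′ signal under the floor on both mutant arrays. For the transferrin receptor control it was 3.57 on FGFR3Act and 2.46 on FGFR3KO, against 5.67 on FGFR3WT. Every transferrin receptor signal lay under the floor, so that ratio is not read.

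**Figure D1:**
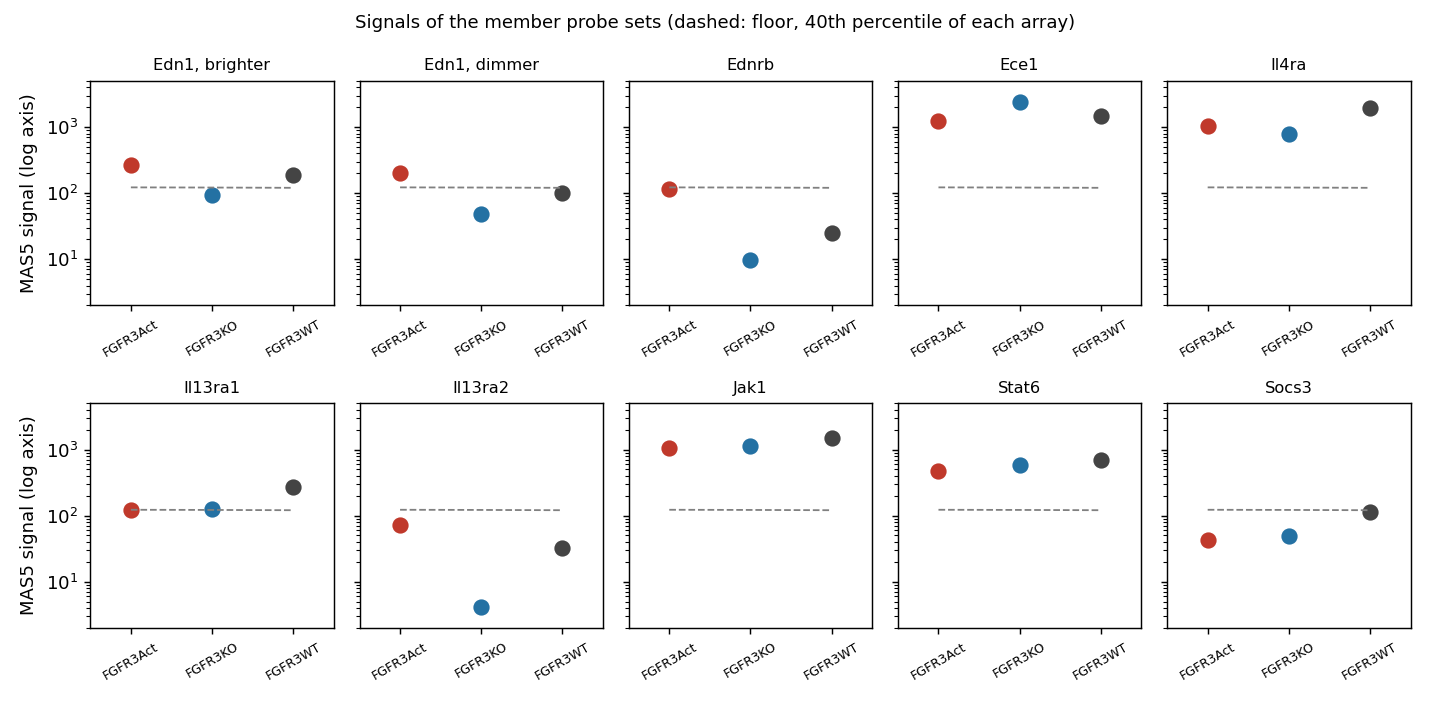
MAS5 signal (log axis) of each of the 10 member probe sets on the 3 arrays, 1 point per array, with the floor of each array dashed. Both Edn1 probe sets were highest on FGFR3Act, Il4ra, Il13ra1, Jak1 and Stat6 were highest on FGFR3WT, and Ednrb, Il13ra2 and Socs3 stayed below the floor.

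The ligand gene Edn1 was higher on FGFR3Act and lower on FGFR3KO than on FGFR3WT. The brighter of its 2 probe sets had signals of 266 on FGFR3Act and 92.8 on FGFR3KO, against 191 on FGFR3WT. The dimmer probe set had signals of 206 on FGFR3Act and 47.7 on FGFR3KO, against 99.9 on FGFR3WT. FGFR3Act was highest in both probe sets. In the brighter one FGFR3KO was under the floor and FGFR3WT above it, and in the dimmer one both lay under the floor and have no order. By the brighter probe set the FGFR3Act signal of Edn1 was 1.39-fold that of FGFR3WT (log2 difference 0.48), and 14.8% of 5244 measured genes were further above. On FGFR3KO it was at least 1.56-fold lower than on FGFR3WT (log2 difference -0.65), a bound because the FGFR3KO signal was under the floor. In that pair 11.6% of 5184 measured genes were further below, and Edn1 entered it through the FGFR3WT array alone.

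The direct difference between the mutants, which does not use the FGFR3WT array, was the larger one for Edn1. By the brighter probe set the FGFR3Act signal was at least 2.18-fold higher than the FGFR3KO signal (log2 difference 1.13). By the dimmer probe set it was at least 1.69-fold higher, under the 2-fold threshold used here to describe size. Of 5297 genes measured in this pair, 15.8% were 2-fold or more apart, 8.33% higher and 7.49% lower on FGFR3Act, and 6.65% were further above than Edn1. This rank is that of the brighter probe set, and 441 genes were 2-fold or more higher on FGFR3Act. Edn1 entered this pair through the FGFR3Act array alone, where it was high, so its rank is not read as a result. Endothelial cells are a known source of Edn1. Of 8 endothelial markers on the array, 1 (Flt1) was above the floor on each array, and their summed signal was 701 on FGFR3Act, 564 on FGFR3KO and 481 on FGFR3WT. Flt1 had signals of 449 on FGFR3Act and 421 on FGFR3KO, against 342 on FGFR3WT. The other markers lay under the floor on every array, where signals have no reliable order. By raw signal all of them but Cldn5 were highest on FGFR3Act, the cadherin gene Cdh5 by little (9.06, against 9.01 on FGFR3WT). The part of endothelial cells in the Edn1 signal was not tested. The FGFR3Act array also held the macrophage markers given above, and their part in the Edn1 signal was not tested. In RNA from a whole culture, fewer cells of a type and less RNA per cell cannot be told apart.

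Ece1, the membrane metalloprotease that releases the active peptide, had a different order from its substrate. Its signal was 1243 on FGFR3Act, 2367 on FGFR3KO and 1456 on FGFR3WT, so that the FGFR3KO array stood alone above the other 2. Ece1 was 1.17-fold lower on FGFR3Act than on FGFR3WT (log2 difference -0.23), with 38.0% of measured genes further below. On FGFR3KO it was 1.63-fold higher than on FGFR3WT (log2 difference 0.70), with 6.39% of measured genes further above. Between the mutants Ece1 was 1.90-fold lower on FGFR3Act than on FGFR3KO (log2 difference -0.93), opposite in direction to Edn1.

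The endothelin receptors could not be compared. Ednrb, the receptor of endothelial cells and melanocytes among others, had signals of 117 on FGFR3Act and 9.82 on FGFR3KO, against 25.4 on FGFR3WT. All 3 lie under the floor, the FGFR3Act signal just under it, and no fold is given. Of 7 melanocyte markers on the array, 1 was above the floor on FGFR3Act (Sox10), 2 on FGFR3KO (Sox10 and Dct) and 1 on FGFR3WT (Sox10). Their summed signal was 513 on FGFR3Act, 653 on FGFR3KO and 419 on FGFR3WT.

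Genes that act around endothelin had a median close to that of all genes on both mutant arrays. This list holds the other endothelin peptides and peptidases and the G proteins, phospholipases and kinases downstream of the receptors. Of its 26 genes, 17 were on the array and 11 were above the floor on all 3 arrays. None of the 11 was at least 2-fold apart in any of the 3 pairs. Of all measured genes, 8.92% were that far apart for FGFR3Act against FGFR3WT, 5.54% for FGFR3KO against FGFR3WT and 15.8% between the mutants. The 11 had a median log2 difference from FGFR3WT of -0.02 on FGFR3Act and 0.08 on FGFR3KO, where the median over all measured genes was -0.07 and -0.02. The lowest of the 11 on FGFR3Act was Mylk, the kinase that starts smooth muscle contraction, at 2400 on FGFR3Act, 4099 on FGFR3KO and 4256 on FGFR3WT. The 9 smooth muscle and pericyte markers summed to 11695 on FGFR3Act, 24939 on FGFR3KO and 15849 on FGFR3WT, with 5, 6 and 5 of them above the floor, and their part in this signal was not tested. The peptide genes Edn2 and Edn3 and the endothelin-degrading peptidase gene Mme were below the floor throughout. For Gna11, which codes for a receptor-coupled G protein, the 2 probe sets disagreed in size, with log2 differences of -0.43 and -2.17 on FGFR3Act against FGFR3WT. For the calcium channel gene Itpr2 the brightest probe set gave -0.48 and another gave -2.08 on FGFR3KO against FGFR3WT.

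The receptor genes Il4ra and Il13ra1 were lower on both mutant arrays than on FGFR3WT, and the third receptor gene, Il13ra2, was below the floor on all 3 arrays. Il4ra, the signalling chain common to both cytokines, had signals of 1061 on FGFR3Act and 784 on FGFR3KO, against 1950 on FGFR3WT. Every signal was far above the floor, and the FGFR3WT array was the high one. Il4ra was 2.49-fold lower on FGFR3KO than on FGFR3WT (log2 difference -1.31), and 1.20% of measured genes were further below. It was 1.84-fold lower on FGFR3Act than on FGFR3WT (log2 difference -0.88), and 6.67% of measured genes were further below. Between the mutants Il4ra was 1.35-fold higher on FGFR3Act than on FGFR3KO (log2 difference 0.44), with 23.8% of measured genes further above.

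Il13ra1, the chain that pairs with Il4ra in non-immune cells, had signals of 123 on FGFR3Act and 125 on FGFR3KO, against 273 on FGFR3WT. Both mutant signals lay at the floor, the FGFR3Act one on its lower side and the FGFR3KO one on its upper side. Against FGFR3WT, Il13ra1 was at least 2.22-fold lower in the FGFR3Act column (log2 difference -1.15) and 2.18-fold lower in the FGFR3KO column (log2 difference -1.12). Of all measured genes, 2.94% in the first pair and 2.28% in the second were further below. It entered the FGFR3Act pair through the FGFR3WT array alone, where it was high, and in the FGFR3KO pair both signals were above the floor. Il13ra2, whose product binds interleukin-13 as a decoy, had signals of 72.9 on FGFR3Act and 4.07 on FGFR3KO, against 31.8 on FGFR3WT, and no fold is given.

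The kinase and the transcription factor of the receptor were also highest on FGFR3WT, with smaller differences. Jak1, a Janus kinase bound to Il4ra, had signals of 1042 on FGFR3Act and 1137 on FGFR3KO, against 1498 on FGFR3WT. It was 1.44-fold lower on FGFR3Act (log2 difference -0.52) and 1.32-fold lower on FGFR3KO (log2 difference -0.40) than on FGFR3WT. Stat6 had signals of 474 on FGFR3Act and 574 on FGFR3KO, against 692 on FGFR3WT. It was 1.46-fold lower on FGFR3Act (log2 difference -0.55) and 1.20-fold lower on FGFR3KO (log2 difference -0.27). Between 18.2% and 30.4% of all measured genes lay further below FGFR3WT than these 2 genes in the pairs concerned. Socs3 had signals of 42.7 on FGFR3Act and 50.0 on FGFR3KO, against 112 on FGFR3WT, all below the floor.

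The disagreement between probe sets of 1 gene gives a scale for such differences. In 352 genes with exactly 2 probe sets above the floor on all 3 arrays, the 2 log2 differences of FGFR3Act from FGFR3WT lay a median of 0.31 apart, with a 90th percentile of 0.87. For FGFR3KO from FGFR3WT the gap was 0.38 at the median and 0.92 at the 90th percentile. The Il4ra difference on FGFR3KO was larger than the 90th percentile of its pair, and the Il4ra difference on FGFR3Act (-0.88) was about equal to it. The Jak1, Stat6 and Ece1 differences from FGFR3WT were smaller than the 90th percentile. Il13ra1 and Edn1, which lay at or under the floor on a mutant array, are not read against this scale of brighter genes. This gap covers error between probe sets on the same RNA and leaves out the spread between cultures.

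Of the 9 genes, 6 were measured in each pair, 4 of them (Ece1, Il4ra, Jak1 and Stat6) above the floor on all 3 arrays. On FGFR3Act 1 of the 6 lay 2-fold or more below FGFR3WT (Il13ra1) and 0 lay 2-fold or more above it. Of all 5244 measured genes in that pair, 8.92% were 2-fold or more apart, 4.79% lower and 4.14% higher. On FGFR3KO 2 of the 6 lay 2-fold or more below FGFR3WT (Il4ra and Il13ra1) and 0 above it. Of all 5184 measured genes in that pair, 5.54% were 2-fold or more apart, 3.61% lower and 1.93% higher. Between the mutants 1 of the 6 (Edn1) was past 2-fold, higher on FGFR3Act, and 0 were past it in the other direction. Of all 5297 measured genes in that pair, 15.8% were 2-fold or more apart, 8.33% higher and 7.49% lower on FGFR3Act. The median log2 difference over the 6 was -0.53 on FGFR3Act and -0.52 on FGFR3KO, each against FGFR3WT, and -0.08 between the mutants. Through the FGFR3WT array alone, where they were high, Il13ra1 entered the FGFR3Act pair and Edn1 the FGFR3KO pair. Between the mutants Edn1 entered through FGFR3Act alone and Il13ra1 through FGFR3KO alone. The members were also chosen with earlier results of these data known, so these medians are not set against those of all genes. The 12 fibroblast markers had a median of -0.47 on FGFR3Act, with 9 of 12 lower than on FGFR3WT, and of -0.0048 on FGFR3KO, with 6 of 12 lower. Their part in the members' differences was not tested. Both comparisons with wild type use the same FGFR3WT array, so a high value on that array lowers a gene in both. Only the pair of mutants is free of it, and there Il4ra, Jak1 and Stat6 differed by 1.09- to 1.35-fold. Il13ra1 differed by 1.02-fold in that pair, but both of its mutant signals lay at the floor. Il4ra and Il13ra1 are also expressed by macrophages, whose markers were high on FGFR3Act and low on the other 2 arrays, and the part of these cells in the FGFR3Act signals was not tested.

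**Figure D2:**
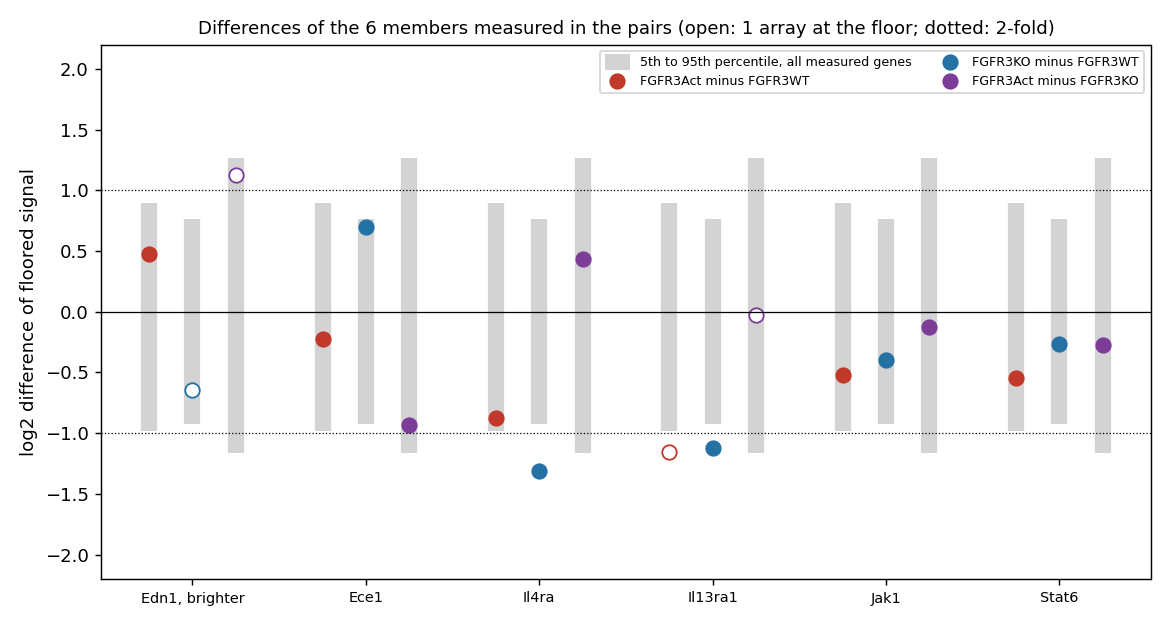
Log2 difference of floored signal for the 6 measured members in the 3 pairs of arrays, with 1 array at the floor where the point is open, the 2-fold threshold dotted and the range between percentiles 5 and 95 of all measured genes in grey. Il4ra on FGFR3KO and Il13ra1 on both mutants lie below the grey range, and the other points lie inside it.

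The genes nearest to these members by their log2 differences of FGFR3Act and FGFR3KO from FGFR3WT were sought among 4499 genes above the floor on all 3 arrays. With 3 arrays such likeness rests on 2 numbers per gene. Nearest to Il4ra was the cytoskeletal adaptor gene Pdlim1, with signals of 728 on FGFR3Act and 535 on FGFR3KO, against 1345 on FGFR3WT, at a distance of 0.017 in log2 units. The annexin gene Anxa8 (0.065) and the zinc finger gene Zmym4 (0.093) followed. Nearest to Il13ra1 were Nsmce3, a subunit of a DNA repair complex (0.097), Sipa1l2 (0.12) and Ndufv2, a subunit of respiratory complex I (0.17). Nearest to Edn1 were Serinc1 (0.025), the membrane-remodelling ATPase gene Vps4b (0.031) and Prr13 (0.031). The Edn1 difference on FGFR3KO used here (-0.65) was set by the floor and was -1.04 without it. The Il13ra1 difference on FGFR3Act was also set by the floor. The genes named as nearest to these 2 members therefore depend on the floor.

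Among other genes of interleukin-4 and interleukin-13 signalling, Grb2 alone was past 2-fold from FGFR3WT, on FGFR3KO. Of 19 such genes, 18 were on the array and 9 were above the floor on all 3 arrays. On FGFR3Act 0 of the 12 measured genes were at least 2-fold apart from FGFR3WT, where 8.92% of all measured genes were. The median log2 difference of the 12 was 0.13. Ptpn6 and Inpp5d were among them through the FGFR3Act array alone, where they were high, and Tyk2 through the FGFR3WT array alone. On FGFR3KO the median over 11 genes was -0.06, with Socs1 among them through the FGFR3KO array alone and Tyk2 through the FGFR3WT array alone. Of these, 1 lay 2-fold or more below FGFR3WT and 0 that far above, where 3.61% and 1.93% of all measured genes did. The 1 gene was Grb2, an adaptor of receptor tyrosine kinases and cytokine receptors, with signals of 187 on FGFR3Act and 161 on FGFR3KO, against 353 on FGFR3WT. Grb2 was 2.19-fold lower on FGFR3KO and 1.89-fold lower on FGFR3Act than on FGFR3WT.

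The cytokine genes themselves, Il4 and Il13, were below the floor on every array. The brightest of 4 Il4 probe sets had signals of 7.94 on FGFR3Act and 9.46 on FGFR3KO, against 8.88 on FGFR3WT, and Il13 had 10.2 on FGFR3Act, 14.5 on FGFR3KO and 12.0 on FGFR3WT. The other Janus kinases took different orders. Jak2 had signals of 338 on FGFR3Act and 291 on FGFR3KO, against 245 on FGFR3WT, a 1.38-fold higher signal on FGFR3Act than on FGFR3WT. Jak3 had 313 on FGFR3Act, 440 on FGFR3KO and 288 on FGFR3WT, highest on FGFR3KO. Tyk2 had 43.1 on FGFR3Act, 96.7 on FGFR3KO and 198 on FGFR3WT, so that only the FGFR3WT signal was above the floor. It was at least 1.62-fold lower on FGFR3Act and at least 1.63-fold lower on FGFR3KO. The inhibitor gene Socs1 had 98.3 on FGFR3Act, 163 on FGFR3KO and 80.3 on FGFR3WT, with only the FGFR3KO signal above the floor. For Pik3ca, the catalytic subunit of phosphoinositide 3-kinase, the 2 probe sets gave opposite signs on FGFR3Act against FGFR3WT (0.52 and -1.36). The phosphatase genes Ptpn6 and Inpp5d, both typical of blood cells, were above the floor only on FGFR3Act, at 149.5 and 189, on the array with the macrophage markers.

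Most genes known to be induced through Stat6 were below the floor, and of the 6 measured on FGFR3Act 4 were higher and 2 lower than on FGFR3WT. Of 20 such genes, 15 were on the array and 5 were above the floor on all 3 arrays. On FGFR3Act 1 of 6 lay 2-fold or more above FGFR3WT, where 4.14% of all measured genes did, and 0 lay that far below. It was the macrophage mannose receptor gene Mrc1, with signals of 727 on FGFR3Act and 15.8 on FGFR3KO, against 6.18 on FGFR3WT, a difference from FGFR3WT of at least 6.02-fold on the array with the macrophage markers. The median log2 difference of the 6 was 0.44 on FGFR3Act. Mrc1 entered the 6 through the FGFR3Act array alone, where it was high, so this median is not set against that of all genes. The other 5 ranged from -0.57 (Postn) to 0.80 (Vcam1). On FGFR3KO 0 of those 5 were at least 2-fold apart, where 5.54% of all measured genes were. The median of the 5 was 0.17, against -0.02 over all measured genes. The matrix protein gene Postn had signals of 4083 on FGFR3Act and 7292 on FGFR3KO, against 6046 on FGFR3WT. Ccl11, the eotaxin that fibroblasts secrete after interleukin-4, was below the floor on all 3 arrays, with 72.4 on FGFR3Act, 43.6 on FGFR3KO and 27.7 on FGFR3WT. For the adhesion molecule gene Vcam1 the brightest probe set was 0.80 higher in log2 on FGFR3Act than on FGFR3WT, and the other 2 were 1.39 and 1.11 higher.

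Socs3 is known as a feedback inhibitor induced by cytokines of the gp130 family, and that family was examined with the remaining STAT and SOCS genes. Of 25 genes, 16 were on the array and 12 were above the floor on all 3 arrays. Of 13 measured genes 0 were at least 2-fold apart from FGFR3WT on either mutant array, with median log2 differences of -0.15 on FGFR3Act and 0.14 on FGFR3KO. Of all measured genes, 8.92% were that far apart on FGFR3Act and 5.54% on FGFR3KO. The receptor chain gene Il6st had signals of 2286 on FGFR3Act and 3407 on FGFR3KO, against 3184 on FGFR3WT. Stat3 had 1156 on FGFR3Act, 1171 on FGFR3KO and 1282 on FGFR3WT by its brighter probe set. Pias3, an inhibitor of activated Stat3, was lower on both mutants, with 145 on FGFR3Act, 158 on FGFR3KO and 271 on FGFR3WT. The cytokine gene Il6 had 240 on FGFR3Act, 115 on FGFR3KO and 151 on FGFR3WT. This is the same order of arrays as Edn1, and both genes were under the floor on FGFR3KO.

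**Figure D3:**
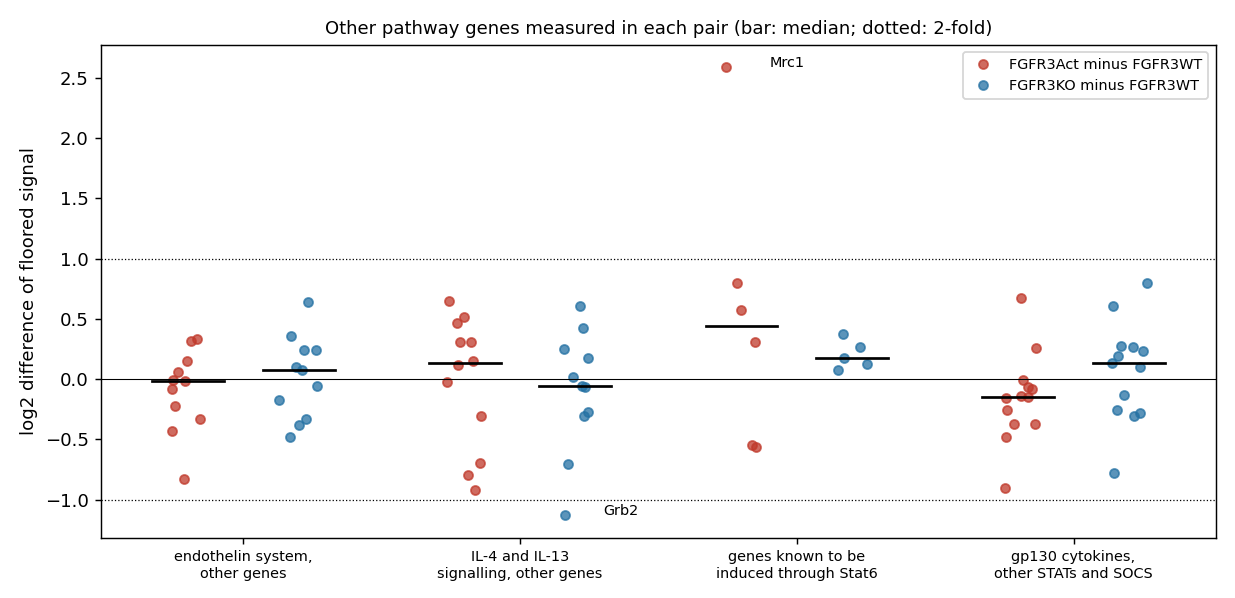
Log2 difference of floored signal from FGFR3WT for the measured genes of the 4 other gene lists, 1 point per gene, with FGFR3Act left of FGFR3KO, the list median as a bar and the 2-fold threshold dotted. Mrc1 on FGFR3Act and Grb2 on FGFR3KO are the points beyond 2-fold.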

How the data were processed

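The authors deposited 1 table of linear intensities, 1 value per probe set and array, made with MAS5 per the submitters' processing notes. This algorithm combines a probe set's probe pairs into 1 signal and applies 1 scale factor to an array. The sources used here give no version, no scaling target and no detection calls. Of 9889 probe sets, 9053 carried 1 symbol in GEO's platform annotation and 323 several, which stayed unnamed. RefSeq (GRCm38.p6) updated the symbols, with 9041 matches. Where a gene had several probe sets, the one with the greatest mean log2 signal stood for it.

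Low MAS5 signals are noisy, so each array got a floor at its 40th percentile (control probe sets left out), and lower signals were raised to it, which shrinks differences of dim genes. A gene was measured in a pair if above the floor on at least 1 array. Differences are in log2, with no further scaling. The 2-fold threshold describes size. With 1 array per genotype no test was made. The arithmetic was tested on simulated data. Python 3.11.15, pandas 2.3.3, numpy 2.4.6, matplotlib 3.10.9, R 4.3.3 and limma 3.58.1 were used.

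The members and lists were chosen with earlier results of these data known, Edn1 and Il4ra among them. The named genes are all members, genes of the 4 lists at least 2-fold from FGFR3WT, 9 genes taken whatever their values (Il2rg, not on the array under its own symbol, Jak2, Jak3, Tyk2, Socs1, Stat3, Il6st, Ccl11 and Postn), and the 3 genes nearest to each member at least 2-fold apart. Mylk, Gna11, Itpr2, Pik3ca, Ptpn6, Inpp5d, Vcam1, Pias3, Il6, Il4, Il13, Edn2, Edn3 and Mme were named after their values were seen. Alternatives were 3 scalings, 2 floors, an offset of 12.1 in place of the floor, 2 filters and 2 rules for probe sets. Promoter windows are from RefSeq, where all 10 listed genes had 1 or more.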

Additional observations from a re-analysis of the deposited data

How the results depend on the processing

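Directions of the members measured against FGFR3WT stayed the same under each of the 10 alternatives that gave a value. Il4ra ranged from -1.31 to -1.21 in log2 on FGFR3KO and from -0.88 to -0.78 on FGFR3Act, and Il13ra1 from -1.15 to -1.05 on FGFR3KO and from -1.15 to -1.08 on FGFR3Act. Il13ra1 gave no value with the floor at the 60th percentile and, on FGFR3Act, with both arrays required above the floor. Edn1 on FGFR3KO ranged from -1.04 to -0.18, with no value in 3 of the 10. Counts of members at least 2-fold apart depended on the floor, which sets which dim genes are compared. With the floor at the 20th percentile they were 4 of 9 measured for FGFR3Act against FGFR3WT (Ednrb and Il13ra2 higher, Il13ra1 and Socs3 lower). For FGFR3KO against FGFR3WT they were 4 of 8 (Edn1, Il4ra, Il13ra1 and Socs3, all lower). For FGFR3Act against FGFR3KO they were 3 of 9 (Edn1, Ednrb and Il13ra2, all higher). With the floor at the 60th percentile they were 0, 1 and 0 of 4 measured in the same order, with Il4ra the 1. With both arrays required above the floor they were 0 of 5 for FGFR3Act against FGFR3WT and 0 of 4 for FGFR3Act against FGFR3KO. For the last pair they were also 0 with the mean over probe sets, where Edn1 was 0.94 higher on FGFR3Act, and 0 with _s_ and _x_ probe sets left out, where it was 0.75 higher. Il13ra1 between the mutants was 0.04 after cyclic loess. Of all genes, 890 of 6727, 592 of 6690 and 1274 of 6757 measured were at least 2-fold apart with the lower floor, in the same order of pairs. With the higher floor they were 258 of 3645, 143 of 3616 and 508 of 3730. With both arrays required above the floor they were 343 of 4635, 240 of 4730 and 650 of 4602. After cyclic loess 249 were higher and 192 lower for FGFR3Act against FGFR3WT, where 217 and 251 are reported. No paired analysis was possible because each genotype has 1 array.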
